A study of Mus musculus with 4 samples.

Results

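Hematopoietic stem cells and the earliest progenitors that descend from them were described in bone marrow of YAP1 heterozygote and WT mice by droplet single-cell RNA sequencing (10x Genomics, kit version 3.1, which reads the 3′ end of transcripts). The cells were selected on measured transcript counts, not by a sort: a cell was taken when it held at least 1 UMI (a unique molecular identifier, which counts 1 captured transcript) of Cd34 and at least 1 UMI of at least 2 of Kit, Hlf, Meis1, Mecom, Adgrl4 and Myct1. Its granule protease transcripts (Mpo, Elane, Prtn3 and Ctsg) had to stay below 1% of its UMIs, S100a8 and S100a9 below 2%, and Pf4 below 5 UMIs. Kept cells had 200 or more genes detected and no more than 10% mitochondrial UMIs; of these 49567 cells, 670 met the rule, or 1.35%. The cells compared were nucleated bone marrow cells, and the gates of the flow sort were not stated. The 2 YAP1 heterozygote libraries and the 2 WT libraries all came from 10-week-old mice, and no further treatment is named for either group. The labels give neither the kind of Yap1 allele nor the strain, so whether the heterozygote carries 1 inactive copy in all cells or in some cell types is not stated. They also do not state that replicates came from separate animals. Among the 670 cells, Xist had 0 and 5755 UMIs in YAP1 heterozygote replicates 1 and 2 and 1 and 5583 UMIs in WT replicates 1 and 2, while Ddx3y had 247 and 0 UMIs in YAP1 heterozygote and 528 and 1 UMIs in WT replicates. The replicates of each group thus differed in sex, and the spread behind the p-values includes that difference.

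Hematopoietic stem cells sit at the top of blood formation: most are quiescent, and they keep themselves while giving rise to progenitors that are gradually committed to lymphoid, myeloid, erythroid, megakaryocytic or basophil and mast cell fates. Hlf, Mecom and Meis1 encode transcription factors that maintain stem cells, Kit is the receptor for stem cell factor, Cd34 marks early progenitors, and Adgrl4 and Myct1 are expressed in stem cells and in endothelium. YAP1 is a coactivator of transcription that the Hippo kinases hold in the cytoplasm: when they are inactive, YAP1 enters the nucleus and drives transcription with TEAD factors. The series asked how cell percentages and expression profiles differ between the genotypes.

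The 670 cells comprised 149 and 159 cells in YAP1 heterozygote replicates 1 and 2, and 225 and 137 cells in WT replicates 1 and 2. They contributed 2657369 and 2275735 UMIs in YAP1 heterozygote and 3444352 and 2371729 UMIs in WT libraries, of library totals between 112806900 and 119855112. Their median depth was 14980 and 11478 UMIs per cell in YAP1 heterozygote and 13055 and 15078 in WT libraries. A count of 0 over these sums allows up to between 0.871 and 1.32 CPM (UMIs of a gene relative to all UMIs of these cells in a library, scaled in the usual way), for counting error only. Between 27 and 62 barcode sequences were shared by any 2 libraries, but none of them belonged to these cells in both. Of the 670 cells, 10 were called doublets by Scrublet.

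The genes of the rule are given as a description, since they chose the cells. Cd34 was present in all 670, Kit in 87.9%, Adgrl4 in 87.0%, Meis1 in 83.9%, Hlf in 56.6%, Myct1 in 55.8% and Mecom in 32.8% of them. In neutrophils (cells with at least 5% S100a8 and S100a9 UMIs, median 6502 UMIs), which should lack these genes, the shares ran from 0.073% for Mecom to 8.20% for Kit, against a median of 13251.5 UMIs in the stem and early progenitor cells. After thinning every cell with at least 2000 UMIs to that number and leaving out the rest, Hlf was present in 24.3% of the stem and early progenitor cells and 0.646% of neutrophils. Hlf stood at 145 and 149 CPM in YAP1 heterozygote and 132 and 129 CPM in WT stem and early progenitor cells, against 4.93, 4.25, 5.24 and 4.70 CPM in all other kept cells of the same libraries. Among cells that met the other limits, exactly 2, 3, 4, 5 and 6 of the 6 markers were found in 125, 125, 134, 170 and 116 cells, while 181 cells just outside the rule had 1 marker. A further 321 kept cells met every other limit but had 0 UMIs of Cd34, and the rule left them out. Between 0.5 and 1% granule protease UMIs were found in 89 cells inside the rule, and 201 cells lay just outside it with 1 to 2%. S100a8, a neutrophil gene, had a UMI in all 670 cells, at 592 and 607 CPM in YAP1 heterozygote and 1060 and 552 CPM in WT libraries; the level was highest in WT replicate 1.

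The name given to the population was only partly borne out by its markers. Clustering of the 670 cells on 1500 variable genes gave 10 sub-clusters, of which 1 was stem cell-like by the fixed markers. Procr, Hlf, Mecom and Ly6a were among its 10 leading genes. Hlf and Mecom, and Myct1 among the same 10, are genes of the rule that chose the cells, whereas Procr and Ly6a are not. The stem cell-like sub-cluster held 135 cells, or 20.1%. A lymphoid-primed progenitor-like sub-cluster of 90 cells was led by Dntt, the terminal transferase of early lymphoid cells, and by Cmah and Tmem108. Another 150 cells (22.4%) fell into sub-clusters named for more mature types: 2 monocyte-like ones of 63 and 30 cells, a basophil or mast cell-like one of 41 cells led by Prss34, Mcpt8 and Gzmb, and a B lineage-like one of 16 cells. The monocyte-like sub-cluster of 63 cells held 6 of the 10 called doublets. Its median was 25276 UMIs per cell, against 13251.5 in all 670 cells. Of the other called doublets, 3 lay in sub-cluster 0 and 1 in the B lineage-like one. The remaining 295 cells lay in 4 sub-clusters that stayed unnamed. Sub-cluster 0 (113 cells) was led by Hba-a1 and the mitotic genes Cenpf, Ccnb2 and Ube2c, and sub-cluster 1 (93 cells) by Hbb-bs and Selp. Erythroid progenitor markers in sub-cluster 0 had a mean log2 ratio of 1.65, with 6 detected. It stayed unnamed because 0 of them were among its 10 leading genes, where a name needed 2. In sub-cluster 1 only 35.5% of cells had a Hbb-bs UMI. Sub-cluster 2 (58 cells) was led by F2r, Mfsd2b and Samd14, and sub-cluster 7 (31 cells) by Wfdc17, Ung and Ccnd1. Endothelial cells also express Adgrl4, Myct1 and Cd34. Summed over a list of 14 endothelial genes, the level was 109 and 122 CPM in YAP1 heterozygote and 125 and 112 CPM in WT stem and early progenitor cells, against 45.7, 51.5, 48.2 and 53.5 CPM in all other kept cells. Of 12 tested genes of the list 6 were higher and 5 lower than in the other cells by edgeR. Over all genes tested, the shares were 29.3% higher and 35.0% lower. Only 4 of the 14 were tested against the protease-high progenitors described below. All 4 were higher than there, beside 31.0% of all genes tested. The filter could pass genes through the stem and early progenitor cells alone, so that count is partly fixed by it. Most of the sum was Pecam1, at 76.4 and 90.96 CPM in YAP1 heterozygote and 83.3 and 78.4 CPM in WT cells; Tie1, Emcn, Robo4 and Tek were among the higher ones. The defining endothelial genes Cdh5 and Flt1 were among the lower ones: Cdh5 had 0 and 0 UMIs in YAP1 heterozygote and 1 and 2 UMIs in WT cells, Flt1 had 3 and 1 UMIs in YAP1 heterozygote and 0 and 0 UMIs in WT cells, and Cldn5 was at 0.

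The share of stem and early progenitor cells was 1.36% (Wilson 95% interval 1.16 to 1.59%) and 1.15% (0.985 to 1.34%) in the YAP1 heterozygote libraries, against 1.73% (1.52 to 1.97%) and 1.16% (0.986 to 1.38%) in the WT libraries. WT replicate 1 was the highest, and the other 3 libraries lay close together. The mean was 1.25 ± 0.146% in YAP1 heterozygote and 1.45 ± 0.401% in WT marrow (SD, n = 2 each), a difference of -0.195 percentage points (exact two-sided permutation p = 0.667; the smallest p that 2 against 2 libraries allow is 0.333). Without WT replicate 1 the difference was 0.0887 points, so its direction rested on that library. After thinning all cells with at least 2000 UMIs to that number and leaving out the rest, the rule took 33 and 34 cells in YAP1 heterozygote and 54 and 33 in WT libraries. The difference in share was -0.0817 points.

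For the make-up of the population, 2 against 2 libraries likewise cannot reach a p under 0.05. The stem cell-like sub-cluster held 23.5 and 22.6% of the YAP1 heterozygote and 16.9 and 18.98% of the WT stem and early progenitor cells. The mean was 23.1 ± 0.60% against 17.9 ± 1.48% (SD, n = 2 each), a difference of 5.13 percentage points with no overlap between the groups (exact two-sided permutation p = 0.333, adjusted over 10 sub-clusters 0.833). The lymphoid-primed progenitor-like sub-cluster held 12.8 and 8.81% of the YAP1 heterozygote and 18.2 and 11.7% of the WT cells. These overlapped, with a difference of -4.17 points (exact permutation p = 0.667) that ran from -7.44 to -0.90 points when 1 library was left out. Sub-cluster 2 held 6.04 and 7.55% of the YAP1 heterozygote and 11.6 and 8.03% of the WT cells, also without overlap (exact permutation p = 0.333). The B lineage-like sub-cluster did not overlap either, at 3.36 and 2.52% against 2.22 and 1.46% in WT (exact permutation p = 0.333). With 10 sub-clusters compared and 0.333 the smallest possible p, some can separate without any genotype effect.

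**Figure D1:**
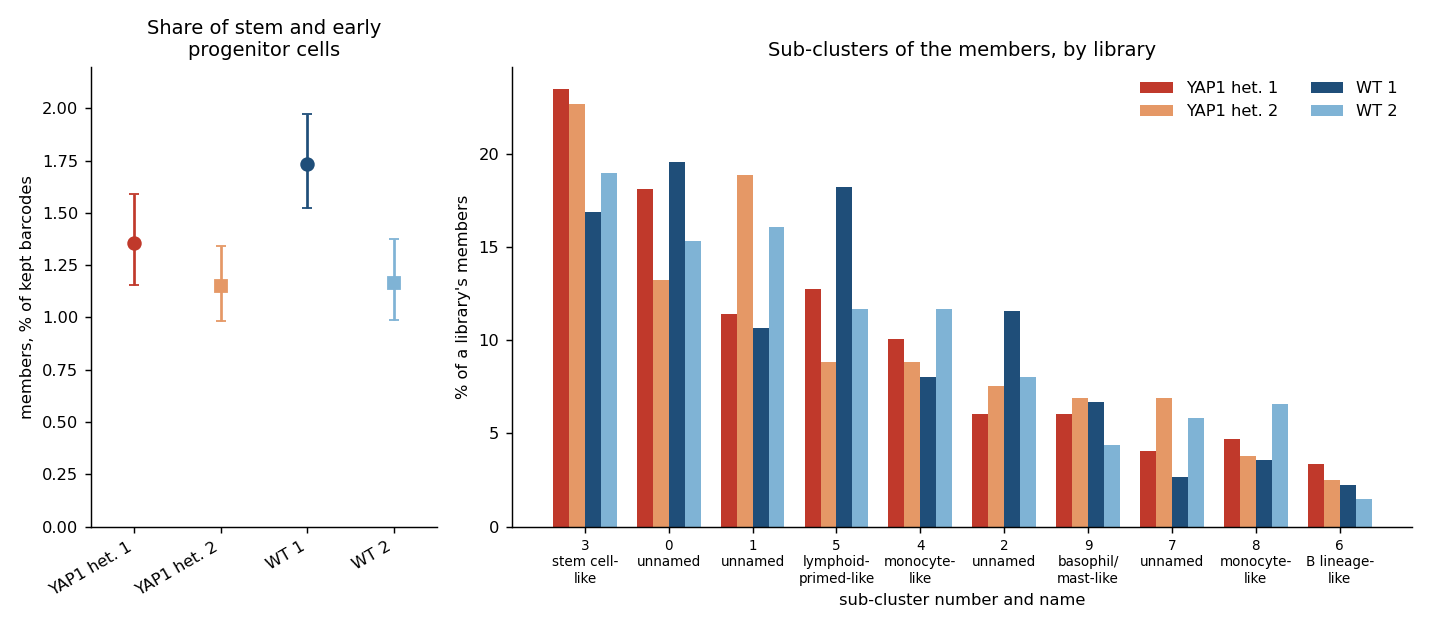
Left, share of stem and early progenitor cells among kept cells (%) in each YAP1 heterozygote and WT library, with Wilson 95% intervals; right, percent of these cells in each of the 10 sub-clusters per library. WT replicate 1 has the highest share at 1.73%. The stem cell-like sub-cluster is larger in both YAP1 heterozygote libraries (23.5 and 22.6%) than in the WT libraries (16.9 and 18.98%). Sub-cluster 2 and the B lineage-like sub-cluster also separate the groups.

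Against all other kept cells of the same libraries, the 670 cells had higher levels of most stem cell genes. With edgeR's quasi-likelihood test on UMIs summed per library, with the library as a block, 9301 of 14454 genes passed an adjusted p (Benjamini-Hochberg) of 0.05, or 64.3%, with 29.3% of all genes tested higher and 35.0% lower. Libraries of both populations did not overlap for 47.1% of genes on the higher and 18.0% on the lower side. Ctla2a, a cysteine protease inhibitor gene, had 876 and 860 CPM in YAP1 heterozygote and 938 and 820 CPM in WT stem and early progenitor cells, against 41.2, 48.5, 49.0 and 53.2 CPM in the other cells (log2 fold change 3.71, SE 0.0646, edgeR adjusted p = 6.33e-17). The libraries of a population lay close together and far from the other population. Of the stem cell program genes 23 of 30 were higher and 3 lower than in the other cells, with a median log2 fold change of 1.75. Myeloid and erythroid priming genes were mostly lower, with 2 higher and 19 lower of 22 for myeloid and 0 and 19 of 22 for erythroid priming. The other 2 lineages were mixed: 7 higher and 10 lower of 20 for lymphoid and 6 and 11 of 21 for megakaryocyte priming. Beside them stand 29.3% higher and 35.0% lower of all genes tested. Angpt1, the TIE2 ligand made by stem cells, rose by 3.55 on the log2 scale, the surface receptor Adgrg1 (GPR56) by 3.21, Flt3, the receptor of early lymphoid and multipotent progenitors, by 3.16, and Cd27 by 3.06. The RNA-binding protein gene Msi2 and the transcription factor gene Sox4 rose by 2.38 and 2.36. Among genes of mature cells, Camp, a granule antimicrobial peptide, had 149 and 138 CPM in YAP1 heterozygote and 222 and 150 CPM in WT stem and early progenitor cells, against 17757, 15708, 16949 and 15607 CPM in the other cells (log2 fold change -7.14). Ly6g, the neutrophil surface antigen, and Jchain, of plasma cells, were lower by -7.22 and -6.90. The S100a8 and S100a9 limits in the rule act on neutrophils, so lower neutrophil genes are in part what the rule chose. The rule also required Cd34 and stem cell markers, so higher stem cell genes are likewise in part what it chose.

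A related population outside the rule was a set of 494 progenitors that met the Cd34 and marker limits but had at least 1% granule protease UMIs (130 and 106 cells in YAP1 heterozygote, 138 and 120 in WT libraries; median 34786 UMIs per cell). These protease-high progenitors have the transcripts of cells committed to neutrophils and monocytes. Of 10394 genes tested, 60.2% differed by edgeR, 31.0% higher and 29.2% lower in the stem and early progenitor cells. Log2 fold changes are after TMM scaling and can differ slightly from the ratio of CPM values.

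Genes of stem cells and of lymphoid priming were higher in the stem and early progenitor cells than in the protease-high progenitors. In the stem cell program list, 24 of 26 tested genes were higher and 0 lower; Ctnnal1 and Fli1 did not pass. Angpt1 averaged 191 ± 19.3 CPM in the stem and early progenitor cells and 17.9 ± 2.46 CPM in the protease-high progenitors (SD, n = 4 libraries each; log2 fold change 3.18). Gata2, a transcription factor needed for stem cells and for mast cells, averaged 167 ± 35.9 against 19.6 ± 2.69 CPM (2.87), and Msi2 averaged 289 ± 41.7 against 46.4 ± 6.21 CPM (2.41). Of the homeobox factors, 8 of 9 were higher, among them Hoxa9 (71.0 ± 11.9 against 19.8 ± 2.50 CPM, log2 fold change 1.60). Of the 20 lymphoid priming genes 17 were tested, and all 17 were higher. The filter passed genes with enough UMIs in either population alone. Genes near 0 in the protease-high progenitors could thus enter only as higher, so such counts are partly fixed by the filter. The same filter applied to the other lists of this comparison. Dntt had 175 and 151 CPM in YAP1 heterozygote and 260 and 161 CPM in WT stem and early progenitor cells, against 2.64, 0, 16.5 and 0 CPM in the protease-high progenitors. Flt3 stood at 135, 123, 124 and 108 CPM in the same order of libraries, against 10.2, 6.87, 6.92 and 5.95 CPM (log2 fold change 3.80, SE 0.104, edgeR adjusted p = 8.38e-15).

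Activation genes separated both populations as well. Over all genes tested, 31.0% were higher and 29.2% lower than in the protease-high progenitors. Against all other kept cells, 29.3% of all genes tested were higher and 35.0% lower. Of the immediate early genes, which are transcribed within minutes of a stimulus and can also be induced while cells are dissociated and sorted, 31 of 35 were higher in the stem and early progenitor cells and 0 lower; against all other kept cells, 14 of 40 were higher and 23 lower. Nr4a1, an orphan nuclear receptor gene of this class, had 155 and 141 CPM in YAP1 heterozygote and 453 and 259 CPM in WT stem and early progenitor cells, against 10.8, 6.01, 12.1 and 9.61 CPM in the protease-high progenitors (log2 fold change 4.44, SE 0.139, edgeR adjusted p = 3.39e-14). Even the lowest of the 4 stem and early progenitor values lay above all 4 protease-high values. Egr1 rose by 3.65 and Dusp5, a nuclear phosphatase for ERK kinases, by 3.42. Of the NF-kB and inflammatory cytokine genes, 21 of 26 were higher and 2, Nfkbib and Tnfaip2, lower, while against all other kept cells 4 of 31 were higher and 22 lower; the chemokine gene Ccl4 averaged 766 ± 129 CPM against 107 ± 20.004 CPM (2.62). Of the quiescence and cell cycle inhibitor genes, 13 of 17 were higher and 0 lower, with Btg2 at 299 ± 65.9 against 64.2 ± 13.8 CPM (2.00) and the p27 gene Cdkn1b at 101 ± 11.2 against 38.9 ± 3.498 CPM (1.15).

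The genes that were lower belonged to myeloid commitment, energy metabolism and the cell cycle. Of the myeloid priming genes, 21 of 22 were lower; Lyz2 was higher by 0.31. Ms4a3, a gene of granulocyte and monocyte progenitors, had 68.9 and 65.0 CPM in YAP1 heterozygote and 79.3 and 62.4 CPM in WT stem and early progenitor cells, against 1059, 1187, 1042 and 1228 CPM in the protease-high progenitors (log2 fold change -4.24, SE 0.0791, edgeR adjusted p = 6.62e-17). Cebpe, the factor of terminal granulocyte maturation, was lower by -3.71 and Trem3 by -4.43. These genes vary with the granule proteases that divided both populations. All 36 tested nuclear genes of oxidative phosphorylation were lower, with a median log2 fold change of -0.69; Cox4i1 averaged 840 ± 43.6 against 1131 ± 22.3 CPM (-0.65). Of the S phase genes 25 of 40 were lower and 2 higher, and of the G2/M genes 22 of 36 were lower and 2 higher. Among cytokine receptor genes 11 of 23 were higher, including the interleukin 1 receptor gene Il1r1, and 9 lower, including Ifngr1 (-1.32) and Csf2ra (-0.96), beside 31.0% higher and 29.2% lower of all genes tested. Median depth per cell differed between the populations by the values above, and its part in these differences was not tested.

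**Figure D2:**
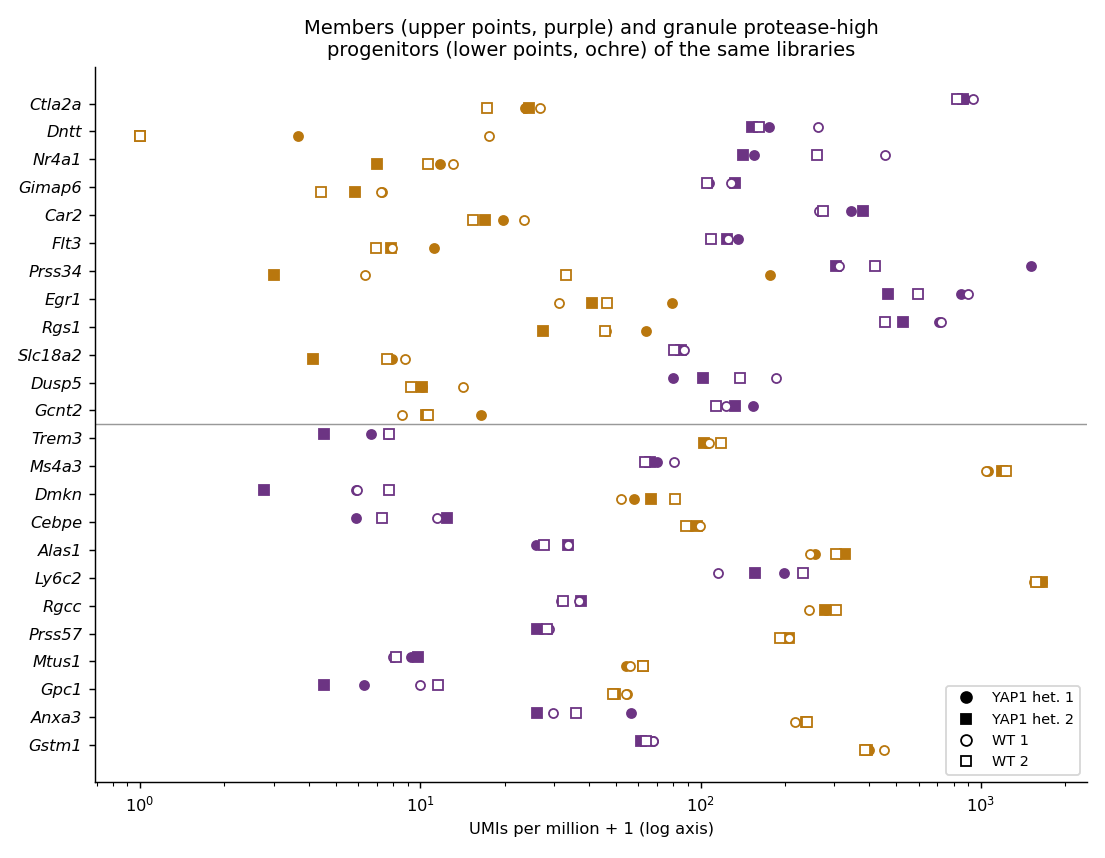
CPM + 1 on a log axis of the 24 named genes in stem and early progenitor cells (upper, purple) and protease-high progenitors (lower, ochre), 1 point per library, filled for YAP1 heterozygote and open for WT. For Ctla2a, Nr4a1 and Flt3 the purple points lie to the right of all ochre points, and for Ms4a3, Cebpe and Trem3 to the left.

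Within the stem and early progenitor cells, few genes passed the genotype test, and their number depended on the fit. Nr4a1 and Ccrl2, a chemerin-binding receptor that is induced in activated leukocytes, fell in YAP1 heterozygote cells, and Ermap, an erythroid membrane protein gene, rose. These were the 3 of 10313 tested genes past an adjusted p of 0.05 by edgeR (0.0291%; 0.0097% higher and 0.0194% lower), and 476 genes had an unadjusted p under 0.05 (4.62%; 1.92% higher and 2.7% lower). By DESeq2, 0 genes passed and 131 had an unadjusted p under 0.05. Leaving out 1 library in turn moved the number of calls to 87 without YAP1 heterozygote replicate 1, 21 without YAP1 heterozygote replicate 2, 56 without WT replicate 1 and 275 without WT replicate 2. With the replicate number as a block, which here is also a term for sex and leaves 1 residual degree of freedom, 150 genes passed, 45 higher and 105 lower, the 3 genes above among them. Libraries of the groups did not overlap for 17.9% of all genes on the higher side and 12.8% on the lower side, and 50.3% of all genes lay above and 49.7% below 0.

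Yap1 itself could not be compared. It had 0 and 0 UMIs in YAP1 heterozygote and 0 and 2 UMIs in WT stem and early progenitor cells, and its paralog Wwtr1 had 0 and 2 against 1 and 1 UMIs. A 3′ count does not tell a changed allele from an intact one, so this checks no label. Of 24 Hippo kinase and adaptor genes 14 were tested; 4 lay above and 10 below 0, with a median log2 fold change of -0.08 beside 0.00107 over all genes, and 0 passed. Of 20 YAP and TEAD target genes 6 were tested, 2 above and 4 below 0, with 0 past the threshold and Gadd45b, a stress-response gene, at 22.96 and 21.1 CPM in YAP1 heterozygote and 45.6 and 27.8 CPM in WT cells. Myh9, the non-muscle myosin heavy chain gene, stood at 249 and 258 CPM in YAP1 heterozygote and 270 and 220 CPM in WT cells, which overlapped (log2 fold change 0.03, SE 0.142, edgeR adjusted p = 1.00).

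Nr4a1 (chr15:101254269-101274795, GRCm38) had 155 and 141 CPM in YAP1 heterozygote cells, against 453 and 259 CPM in WT cells, from 411, 320, 1561 and 615 UMIs. Both YAP1 heterozygote libraries lay below both WT libraries, and WT replicate 1 was the highest. The means were 148 ± 9.94 CPM and 356 ± 137 CPM (SD of 2 libraries), with -1.29 as the fitted log2 fold change (SE 0.194, edgeR adjusted p = 0.0239). Without WT replicate 1 the log2 fold change was -0.85, still past the threshold. Ccrl2 (chr9:111054486-111057519) had 13.5 and 10.99 CPM in YAP1 heterozygote and 37.2 and 32.5 CPM in WT cells, with no overlap (log2 fold change -1.52, SE 0.227, edgeR adjusted p = 0.0239). Both calls were lost by DESeq2 (adjusted p = 0.477 for Nr4a1 and 0.228 for Ccrl2) and when cells of the sub-clusters named for more mature types were left out (edgeR adjusted p = 0.233 for both). Their log2 fold changes stayed about as large: -1.29 by DESeq2 and -1.24 without those cells for Nr4a1, and -1.52 and -1.40 for Ccrl2. With the protease limit at 0.5%, both stood at an edgeR adjusted p of 0.059.

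The promoters of Nr4a1 and of Nfkbia, the gene for the NF-kB inhibitor IkBa, are shown because these genes are classical readouts of cAMP and MAP kinase signalling and of NF-kB, and both stood lower in YAP1 heterozygote cells. The sequences are the 250 bases before the RefSeq start (GRCm38.p6), 5′ to 3′ on the strand of the gene, at chr15:101266596-101266845 on the plus strand for Nr4a1 and chr12:55492648-55492897 on the minus strand for Nfkbia. Capitals mark the letters TGCGTCA, a variant of the cAMP response element, in Nr4a1, and a kappaB match (GGGA and TTCC with any 2 bases between, found on the reverse strand) in Nfkbia.
Nr4a1: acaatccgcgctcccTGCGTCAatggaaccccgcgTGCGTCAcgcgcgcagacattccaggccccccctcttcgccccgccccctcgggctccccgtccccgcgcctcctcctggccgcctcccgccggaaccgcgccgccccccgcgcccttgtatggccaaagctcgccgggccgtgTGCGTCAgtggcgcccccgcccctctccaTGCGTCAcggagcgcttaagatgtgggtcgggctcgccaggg
Nfkbia: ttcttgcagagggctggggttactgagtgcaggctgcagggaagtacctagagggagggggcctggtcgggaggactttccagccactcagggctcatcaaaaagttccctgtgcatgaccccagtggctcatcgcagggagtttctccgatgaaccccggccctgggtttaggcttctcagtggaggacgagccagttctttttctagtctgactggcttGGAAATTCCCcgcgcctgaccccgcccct
The Nr4a1 window held 4 matches to TGCGTCA, which ended 229, 209, 65 and 36 bases before the start, and no match to the full element TGACGTCA, to the AP-1 letters TGANTCA or to the kappaB letters. The Nfkbia window held 1 kappaB match, 29 to 20 bases before the start, and none of the others. Both strands were searched. Of 32851 RefSeq mouse promoter windows of the same source, 1.75% held TGCGTCA, 1.55% TGACGTCA, 6.75% TGANTCA and 1.21% the kappaB letters, and TGCGTCA was added to the search after the Nr4a1 sequence was seen. A match is a description of letters and no evidence of binding.

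Other genes of NF-kB signalling and its feedback stood lower in YAP1 heterozygote cells without passing the adjusted threshold. Of 27 tested NF-kB and inflammatory cytokine genes, 22 lay below 0, with a median log2 fold change of -0.47. In 10 of them both YAP1 heterozygote libraries lay below both WT libraries, against 12.8% of all genes, and 0 were called. The list was not lower in these cells alone: in all other kept cells 30 of 32 tested genes lay below 0 (median -0.57). In the protease-high progenitors 17 of 23 did (median -0.20). The neutrophil chemokine gene Cxcl2 had 81.3 and 19.3 CPM in YAP1 heterozygote and 304 and 156 CPM in WT cells (log2 fold change -2.20, SE 0.374, edgeR adjusted p = 0.0517). Tnfaip3, which encodes the NF-kB inhibitor A20, had 71.1 and 31.2 CPM against 163 and 89.0 CPM in WT (-1.31, edgeR adjusted p = 0.118). For Cxcl2 and Tnfaip3 the YAP1 heterozygote libraries lay below the WT ones, with a wide gap between the replicates of each group. Zc3h12a, the RNase regnase-1 that degrades inflammatory transcripts, had 30.1 and 21.1 CPM against 65.0 and 43.4 CPM in WT (-1.11, edgeR adjusted p = 0.0758). Nfkbia had 240 and 185 CPM against 557 and 290 CPM in WT (-1.01, edgeR adjusted p = 0.137). Nfkb2, a subunit gene, had 28.2 and 19.8 CPM against 59.8 and 32.5 CPM in WT (-0.98, edgeR adjusted p = 0.257). Leaving out 1 library moved the log2 fold change from -3.57 to -1.54 for Cxcl2, -2.02 to -0.82 for Tnfaip3, -1.39 to -0.49 for Nfkbia and -1.31 to -0.46 for Nfkb2. These 4 genes and Zc3h12a passed with the replicate number as a block. Other members overlapped: Nfkb1 had 130 and 111 CPM in YAP1 heterozygote and 117 and 120 CPM in WT cells, and the chemokine genes Ccl3 (451 and 299 CPM against 388 and 353 CPM in WT) and Ccl4 (798 and 609 CPM against 920 and 735 CPM in WT) overlapped between groups.

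Summed over the list, NF-kB and inflammatory genes reached 2359 and 1771 CPM in YAP1 heterozygote and 3427 and 2364 CPM in WT stem and early progenitor cells. The list median was -0.18 without WT replicate 1 and -0.78 without WT replicate 2. Summed neutrophil markers, which report free RNA and mature cells, were 663 and 648 CPM in YAP1 heterozygote and 1003 and 656 CPM in WT cells; their part in the lower NF-kB values was not tested.

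Immediate early genes did not move as 1 group. Of 37 tested, 25 lay below and 12 above 0, with a median log2 fold change of -0.28; leaving out WT replicate 1 gave -0.05 and leaving out YAP1 heterozygote replicate 2 gave -0.07. Nr4a1 was the 1 called gene among them, and beside 0.0194% of all genes called lower. Libraries did not overlap for 16 of the 37 on the lower and 3 on the higher side, beside 12.8% and 17.9% of all genes. Jun, a subunit of AP-1, had 2110 and 1411 CPM in YAP1 heterozygote and 2196 and 1367 CPM in WT cells. Fos, its partner, had 1597 and 948 CPM against 838 and 1081 CPM in WT (log2 fold change 0.38). Both overlapped between the groups, and YAP1 heterozygote replicate 1 was high for Fos. Egr1 had 850 and 465 CPM against 896 and 598 CPM in WT, and Dusp1 467 and 307 CPM against 266 and 291 CPM in WT. Maff, a small MAF factor, had 7.90 and 11.9 CPM in YAP1 heterozygote and 38.9 and 21.9 CPM in WT cells (-1.68, edgeR adjusted p = 0.0606). Dusp5 had 78.7 and 101 CPM against 185 and 137 CPM in WT (-0.87, edgeR adjusted p = 0.0758). The 2 other genes of the Nr4a family were also lower in both YAP1 heterozygote libraries without passing: Nr4a2 had 32.4 and 37.3 CPM against 49.6 and 59.4 CPM in WT, and Nr4a3 had 6.02 and 2.197 CPM against 20.3 and 6.75 CPM in WT.

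**Figure D3:**
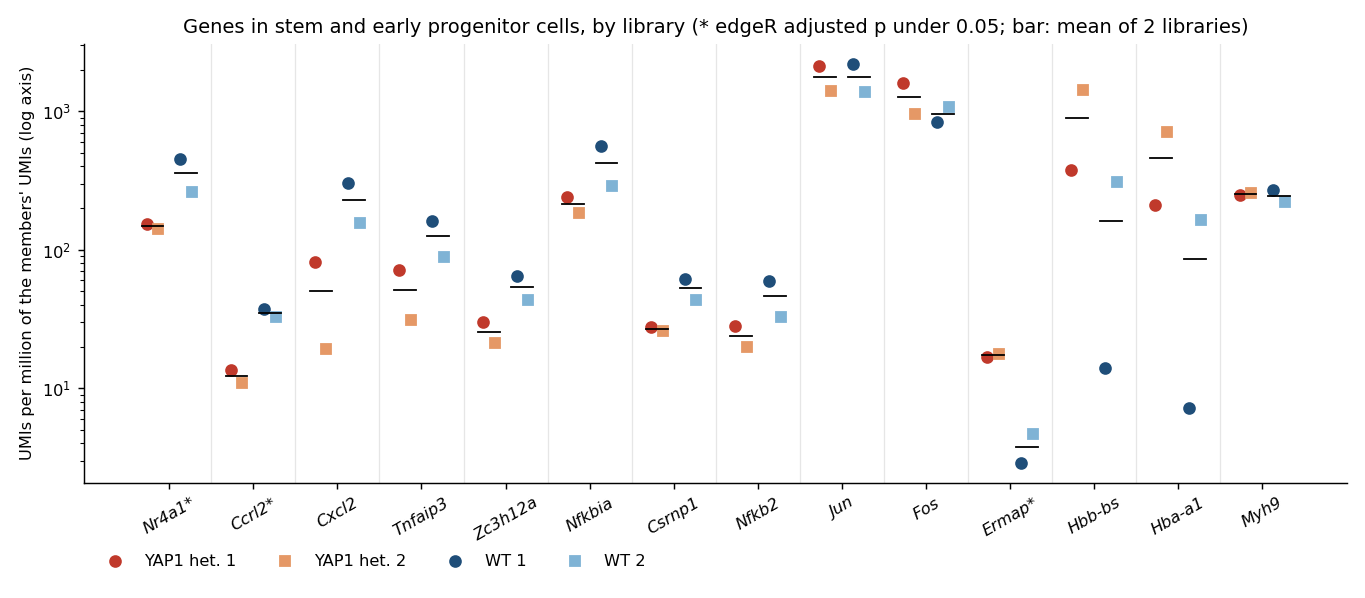
CPM on a log axis of 14 genes in the stem and early progenitor cells of each library, YAP1 heterozygote left of WT within each gene; short bars are group means and an asterisk marks a gene past an adjusted p of 0.05 by edgeR. Nr4a1 is lower at 155 and 141 CPM in YAP1 heterozygote against 453 and 259 CPM in WT libraries, while Jun and Fos overlap between the groups.

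The lower Nr4a1, Ccrl2 and Nfkbia values were not shown to be particular to stem and early progenitor cells. In all other kept cells of the libraries, Nr4a1 had 44.6 and 42.1 CPM in YAP1 heterozygote and 102 and 64.9 CPM in WT (log2 fold change -0.93, edgeR adjusted p = 1.00), and the difference between both effects was -0.35 (edgeR adjusted p = 1.00). Ccrl2 had 21.8 and 19.98 CPM in YAP1 heterozygote and 90.8 and 28.6 CPM in WT other cells (-1.5003), and the difference of effects was -0.07. For Nfkbia the other cells had 265 and 203 CPM against 703 and 303 CPM in WT (-1.09), with a difference of effects of 0.03. In those cells WT replicate 1 stood far above the other 3 libraries. The genotype effects differed between both sets of cells for 10 of 15418 genes by edgeR (0.0649%; 0.0519% higher and 0.013% lower), among them 4 globin genes; no gene of the NF-kB list and no Nr4a gene was among the 10. Without YAP1 heterozygote replicate 1, YAP1 heterozygote replicate 2, WT replicate 1 and WT replicate 2 the number was 20, 15, 105 and 96. Over all genes, 0 of 15571 passed edgeR's genotype test in the other cells (415 with an unadjusted p under 0.05) and 0 of 10185 in the protease-high progenitors (353 with an unadjusted p under 0.05).

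Inside the population, the Nr4a1 levels separated the genotypes in some sub-clusters and overlapped in others. These levels are given with no test, since the same cells and genes made the clusters. In the stem cell-like sub-cluster Nr4a1 had 334 and 289 CPM in YAP1 heterozygote and 906 and 726 CPM in WT libraries. In the lymphoid-primed progenitor-like sub-cluster it had 296 and 287 CPM against 1234 and 612 CPM in WT. In the Hba-a1 and Cenpf sub-cluster it had 121 and 82.4 CPM against 260 and 75.7 CPM in WT, so there the groups overlapped. They also overlapped in sub-cluster 1, at 155 and 108 CPM against 86.2 and 239 CPM in WT, and in sub-cluster 7, at 319 and 168 CPM against 268 and 403 CPM in WT. In sub-cluster 2 the YAP1 heterozygote libraries lay lower, at 152 and 153 CPM against 315 and 252 CPM in WT. They lay lower in the larger monocyte-like sub-cluster too, at 35.1 and 97.5 CPM against 468 and 206 CPM in WT, and overlapped in the smaller monocyte-like, the B lineage-like and the basophil or mast cell-like ones. Tnfaip3 in stem cell-like cells had 14.5 and 21.97 CPM in YAP1 heterozygote and 103 and 74.6 CPM in WT, and Ccrl2 had 17.4 and 14.6 CPM against 52.7 and 39.2 CPM in WT. Nfkbia in the same cells had 116 and 176 CPM against 327 and 188 CPM in WT, while Fos had 2387 and 1596 CPM against 958 and 1279 CPM in WT. The direction in Fos was thus opposite to that in Nr4a1 in the same cells.

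**Figure D4:**
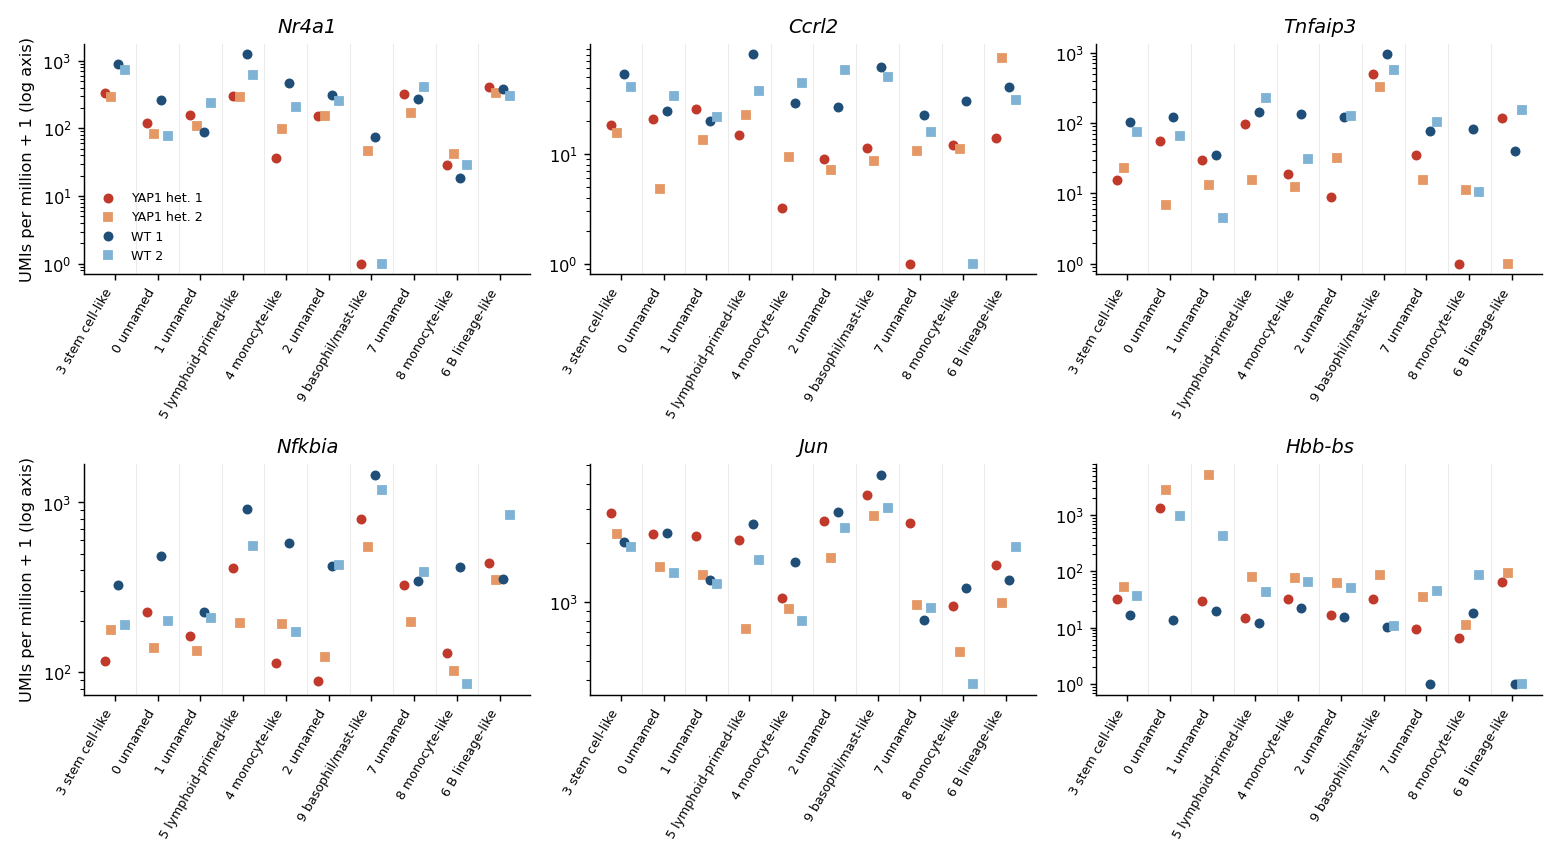
CPM + 1 on a log axis of Nr4a1, Ccrl2, Tnfaip3, Nfkbia, Jun and Hbb-bs in each of the 10 sub-clusters, 1 point per library, YAP1 heterozygote and WT in different colours. In the stem cell-like sub-cluster Nr4a1 is at 334 and 289 CPM in YAP1 heterozygote and 906 and 726 CPM in WT libraries, and Hbb-bs is highest in the sub-clusters led by hemoglobin genes.

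Erythroid genes stood higher in YAP1 heterozygote cells, but few cells carried them. Of 20 tested erythroid priming genes all 20 lay above 0, with a median log2 fold change of 1.21; libraries did not overlap for 15, against 17.9% of all genes, and Ermap was the 1 called gene. In all other kept cells 0 of 22 tested genes of this list lay below 0 (median 0.26). Their sum there was 4178 and 9110 CPM in YAP1 heterozygote and 1888 and 8306 CPM in WT, so WT replicate 1 was the lowest. Ermap (chromosome 4) had 16.9 and 17.6 CPM in YAP1 heterozygote and 2.90 and 4.64 CPM in WT cells, from 45, 40, 10 and 11 UMIs (log2 fold change 2.21, SE 0.351, edgeR adjusted p = 0.0298). Of those UMIs, 43, 40, 10 and 11 lay in the Hba-a1 and Cenpf sub-cluster, and in 1 library a single cell held all of them. The call was lost when the cell with the most Ermap UMIs was taken out of each library (edgeR adjusted p = 0.0897), without called doublets (0.208), without cells of the sub-clusters named for more mature types (0.233) and by DESeq2 (0.245). The log2 fold change was no smaller in the first 2 of these settings, at 3.26 and 2.68, and it was 2.23 without the more mature types and 2.204 by DESeq2. The adult beta-globin gene Hbb-bs had 376 and 1424 CPM in YAP1 heterozygote and 13.9 and 309 CPM in WT cells (2.47, edgeR adjusted p = 0.511), with up to 70.0% of a library's UMIs in 1 cell; leaving out 1 library moved the fold change between 1.19 and 6.01. Blvrb, a heme-catabolism enzyme gene, had 70.0 and 105 CPM against 34.0 and 51.4 CPM in WT (1.03, edgeR adjusted p = 0.118). The heme synthesis gene Cpox (54.9 and 49.2 CPM against 20.6 and 37.5 CPM in WT) also lay above without passing. Summed erythroid markers were 1031 and 3070 CPM in YAP1 heterozygote and 125 and 762 CPM in WT cells. Only 8 and 19 YAP1 heterozygote cells and 4 and 16 WT cells had 5 or more globin UMIs, and without them the list median was 0.21 over 14 tested genes. Ermap had no test result without those cells. In the stem cell-like sub-cluster Hbb-bs had 31.9 and 51.3 CPM in YAP1 heterozygote and 15.8 and 35.3 CPM in WT, which overlapped.

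Basophil and mast cell genes were higher chiefly in 1 library. Mcpt8, a basophil protease gene, had 838 and 309 CPM in YAP1 heterozygote and 236 and 231 CPM in WT cells (log2 fold change 1.27, edgeR adjusted p = 0.143), with up to 59.5% of a library's UMIs in 1 cell. Fcer1a, the high-affinity IgE receptor chain, had 69.6 and 25.5 CPM against 15.4 and 18.97 CPM in WT (1.48, edgeR adjusted p = 0.143). Summed basophil and mast cell markers were 3320 and 1349 CPM in YAP1 heterozygote and 1349 and 1270 CPM in WT cells, so YAP1 heterozygote replicate 1 stood apart. Prg2, an eosinophil granule gene, had 164 and 753 CPM against 162 and 0.843 CPM in WT, and a single cell held up to 99.9% of a library's UMIs.

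Stem cell and cell cycle genes differed by less than the threshold. Of 24 tested stem cell program genes 15 lay above 0 and 9 below, with a median log2 fold change of 0.06 and 7 without overlap on the higher side, beside 17.9% of all genes. Hoxa9, a homeobox gene that drives stem cell expansion, had 77.5 and 84.4 CPM in YAP1 heterozygote and 59.2 and 62.8 CPM in WT cells (0.39, edgeR adjusted p = 0.894). Ly6a, which encodes SCA-1, had 35.7 and 48.8 CPM against 31.6 and 29.5 CPM in WT (0.44). Hoxa9 and Ly6a were higher in both YAP1 heterozygote libraries, by small steps. Of 40 S phase genes 34 lay above 0 with a median of 0.10, and the cyclin E1 gene Ccne1 had 17.3 and 20.2 CPM against 4.64 and 11.8 CPM in WT (1.24, edgeR adjusted p = 0.416). Of 36 G2/M genes 13 lay above and 23 below 0 (median -0.08). Oxidative phosphorylation genes lay above 0 in 31 of 36 cases with a median of only 0.08, and heat shock genes below 0 in 13 of 15 (median -0.16), with Hspa1b at 5.64 and 1.32 CPM in YAP1 heterozygote and 48.8 and 6.32 CPM in WT. None of these genes passed. Lymphoid priming (6 above and 12 below 0), myeloid priming (8 above and 14 below), megakaryocyte priming (5 above and 10 below) and cytokine receptor genes (12 above and 11 below) had medians between -0.11 and 0.03.

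**Figure D5:**
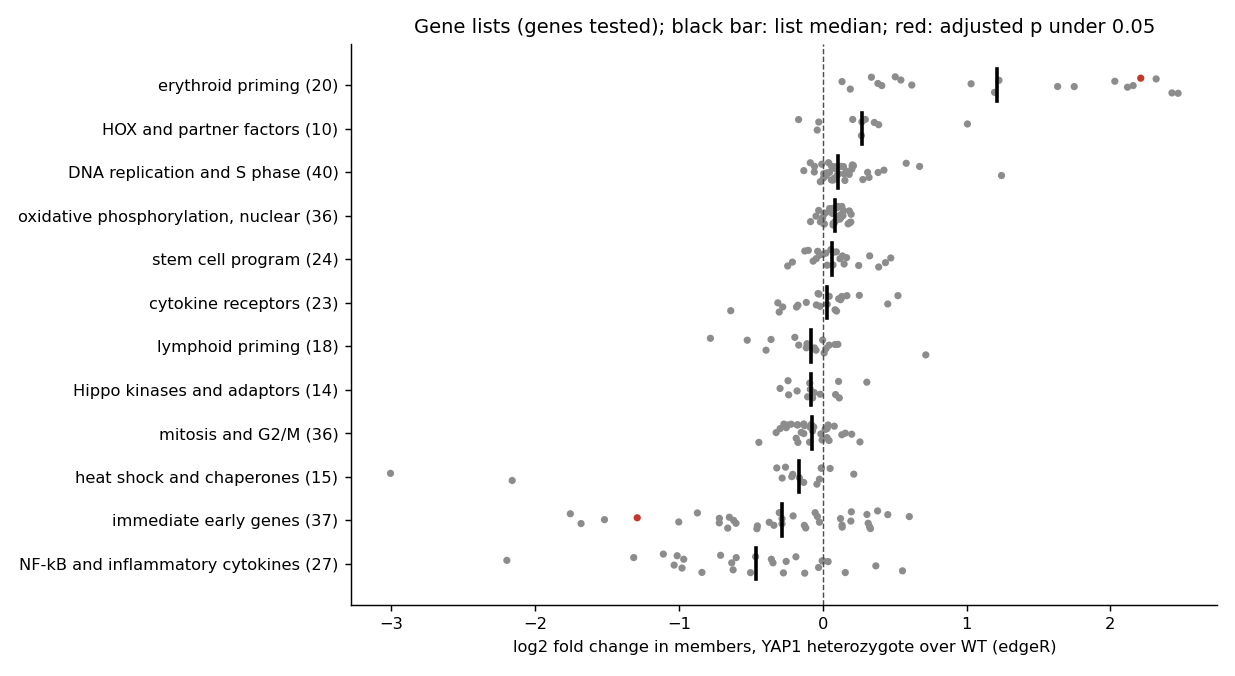
Log2 fold change (YAP1 heterozygote minus WT) of each tested gene in 12 gene lists in stem and early progenitor cells; grey points are genes, red points genes past an adjusted p of 0.05 by edgeR and black bars list medians. The erythroid list lies above 0 throughout with a median of 1.21, the NF-kB list has a median of -0.47, and most other medians lie close to 0.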

How the data were processed

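Nucleated bone marrow cells of 2 YAP1 heterozygote and 2 WT libraries were sequenced with a droplet 3′ kit. The authors deposited raw UMI counts per gene and barcode, with 32544 genes; per the file headers they come from Cell Ranger 5.0.0. The submitters' processing notes give version 3.0.0 of that program, Seurat 4.3.0 and the builds GRCm38 and mm10, so the version behind the counts is not settled. Of 51065 deposited barcodes, 49567 passed the gene and mitochondrial limits. The members, gene lists and comparisons were chosen with earlier results of these data known.

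Counts were summed per library and tested with edgeR 4.0.16 (quasi-likelihood, filterByExpr, TMM, Benjamini-Hochberg, threshold 0.05); DESeq2 1.42.0 was an alternative. Comparisons between cell populations kept the library as a block. Members were clustered with scanpy 1.11.5 (20 components, 15 neighbours, Leiden resolution 1.0, leidenalg 0.10.2). Doublets were called with Scrublet and left out only as an alternative. The labels do not state separate animals, so p-values measure the spread between these libraries, which may be partly technical. Wilson intervals and the upper limit for a gene at 0 (3 UMIs) reflect counting error alone.

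The named genes were up to 12 per direction with the largest change among genes that passed, had a mean log2 CPM of 5 or more and did not overlap between libraries, filled up with genes under an unadjusted p of 0.05, plus Yap1, Wwtr1, Myh9, the genes of the rule and up to 4 genes per list. Ccrl2, Gadd45b, Maff, Dusp1, Dusp5, Egr1, Nr4a2, Nr4a3, Nfkb1, Hoxa9, Ly6a, Ccne1, Hspa1b, Btg2, Cdkn1b, Il1r1, Ifngr1 and Csf2ra were named after their values were seen. In data simulated for the genotype comparison (10158 genes), the test recovered 17.9%, 70.1% and 100% of changes by 1.5-fold, 2-fold and 4-fold, with 8 false calls of 133. For the comparison with protease-high progenitors (10248 genes) the shares were 73.1%, 92.3% and 100%, with 4 false calls of 179. Both simulations took the spread between libraries from a trend fitted over genes. They modelled no gene-specific spread, no difference in sex and no UMIs concentrated in 1 cell, so real changes can be recovered less often. In the real genotype comparison Hbb-bs (log2 fold change 2.47), Hba-a1 (2.43), Prg2 (2.44) and Cxcl2 (-2.20) did not pass. Gene positions are from GENCODE M21 (GRCm38) and promoters from RefSeq (GRCm38.p6).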

Additional observations from a re-analysis of the deposited data

Results flagged for a closer look

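For 10 genes the genotype effect in stem and early progenitor cells differed from that in all other kept cells (edgeR quasi-likelihood test of the interaction, library as block, 15418 genes tested). Each difference is given on the log2 scale as the effect in stem and early progenitor cells minus that in the other cells, and was not weighed further.

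The 4 globin genes and Slc4a1, the red cell anion exchanger gene, had a higher effect in stem and early progenitor cells. The difference was 1.711 for Hbb-bt (edgeR adjusted p = 6.09e-09), 2.303 for Hbb-bs, 2.306 for Hba-a1 and 1.635 for Hba-a2. For Slc4a1 it was 2.98: stem and early progenitor cells had 13.5 and 24.2 CPM in YAP1 heterozygote and 0.29 and 4.64 CPM in WT libraries, while the other cells had 22.9 and 43.0 CPM against 14.7 and 49.7 CPM in WT. For Hbb-bt the other cells had 516 and 1200 CPM in YAP1 heterozygote and 239 and 1108 CPM in WT libraries. Between 60.8 and 100% of the UMIs of these 5 genes came from 1 cell in at least 1 library.

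The basophil and cytotoxic granule genes Mcpt8, Fcer1a and Gzmb had differences of 1.175 (edgeR adjusted p = 2.44e-06), 1.498 and 3.99. Gzmb had 7.53 and 80.0 CPM in YAP1 heterozygote and 6.97 and 6.32 CPM in WT stem and early progenitor cells, so YAP1 heterozygote replicate 2 alone was high. Up to 59.5% of a library's Mcpt8 UMIs, 48.9% of Fcer1a and 70% of Gzmb UMIs came from 1 cell.

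The 2 genes with a lower effect were Ly6d, a surface marker of B lineage-committed lymphoid progenitors, at -0.9572, and Osm, the cytokine oncostatin M, at -1.219. Ly6d had 45.2 and 40.9 CPM in YAP1 heterozygote and 71.1 and 89.0 CPM in WT stem and early progenitor cells, against 229 and 285 CPM in YAP1 heterozygote and 225 and 273 CPM in WT other cells. Osm had 50.05 and 37.8 CPM in YAP1 heterozygote and 81.6 and 58.2 CPM in WT stem and early progenitor cells, and in the other cells 210 and 156 CPM in YAP1 heterozygote and 114 and 151 CPM in WT libraries. For both genes the groups did not overlap in stem and early progenitor cells. A single cell held up to 41.7% of a library's Ly6d UMIs and up to 17.1% of its Osm UMIs.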

How the results depend on the processing

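The number of genes called between the genotypes depended on the setting, and the cause was not tested. Against 3 in the analysis as reported it was 0 by DESeq2, 105 without a filter, 13 without called doublets, 38 with at least 3 of the 6 other markers, 6 with the protease limit at 0.5% and 0 without cells of sub-clusters named for more mature types. Leaving out 1 library gave between 21 and 275. With the replicate number as a replicate block it was 150; deviations of same-numbered libraries correlated at 0.278 (0.138 without sex chromosome genes) over only 2 pairs. The labels tie no number to a shared animal, litter or day, so the numbers were not taken as pairs, but they coincide with sex in both groups, so the block is also a term for sex. The number of genes whose effect differed from that in other cells was 6 by DESeq2 and 49 without a filter, and between 15 and 105 when 1 library was left out, against 10. The 2 population comparisons called between 8422 and 9336 and between 4435 and 7001 genes, and all 336 values of their named genes under these settings kept direction and call.

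The difference in the share of stem and early progenitor cells ran from -0.479 to 0.0887 percentage points when 1 library was left out and stayed below 0 under the other settings. For sub-clusters the same range was -4.23 to 0.679 points for sub-cluster 0, -1.95 to 5.51 for 1, -4.76 to -1.24 for 2, 4.09 to 6.18 for 3, -2.24 to 1.44 for 4, -7.44 to -0.900 for 5, 0.675 to 1.51 for 6, -0.367 to 2.81 for 7, -2.33 to 0.680 for 8 and -0.187 to 2.10 for 9. Resolutions 0.6 and 1.4 gave 7 and 17 sub-clusters.

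List medians moved as follows. For the stem cell program the median was 0.110 with at least 3 markers, 0.0240 without the top cell of each gene and -0.0162 to 0.0754 without 1 library. For erythroid priming it was 2.11 with at least 3 markers, 2.52 with the protease limit at 0.5% and 0.208 without cells with 5 or more globin UMIs, a setting chosen after seeing the data, as were the values of the stem cell-like sub-cluster. For S phase it was 0.259 with the protease limit at 0.5% and -0.000261 to 0.216 without 1 library, and for oxidative phosphorylation 0.0102 to 0.112 without 1 library.

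Genes with log2 fold changes that changed sign were Prg2 (-0.0314 without called doublets), Hbb-bt (-0.0678 without globin-bearing cells), Fcer1a (-0.0248 with at least 3 markers) and Mcpt8 (-0.34 without cells of more mature types). With at least 3 markers Sox4 was 0.0168, Jun 0.000853 and Myh9 -0.0289. Without globin-bearing cells Sox4 was 0.0134, Jun 0.0136 and Nfkb1 -0.0101. Without cells of more mature types Sox4 was 0.0118, Jun 0.00855 and Myh9 -0.0261, with Nfkb1 at -0.0377. Ccl3 was 0.0128 without called doublets and Nfkb1 -0.0963 with the protease limit at 0.5%. Without 1 library the range was -0.17 to 0.28 for Ifitm3, -0.13 to 0.0330 for Sox4, -0.31 to 0.25 for Ccl3, -0.0246 to 0.70 for Fos, -0.34 to 0.32 for Jun, -0.26 to 0.0142 for Zfp36l2, -0.0937 to 0.16 for Myh9, -0.69 to 0.15 for Egr1 and -0.0966 to 0.0935 for Nfkb1.

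With 2 libraries per genotype and 137 to 225 stem and early progenitor cells per library, simulated data of this size gave 133 calls, with 17.9% of 1.5-fold, 70.1% of 2-fold and 100% of 4-fold changes recovered. The simulated data had no gene-specific spread and no UMIs concentrated in 1 cell, so real changes can be recovered less often. Where a library is left out, the lone library of its group is assumed to vary like the others. Yap1 lies below the depth needed for any comparison.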

Other observations

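Other lists of the stem and early progenitor cells held no called gene by edgeR in the genotype comparison. Of 34 tested interferon-stimulated genes 22 lay above and 12 below 0 (median log2 fold change 0.07), with 8 not overlapping on the higher and 6 on the lower side, beside 17.9% and 12.8% of all genes. MHC class II genes lay above 0 in 3 and below 0 in 6 of 9 cases, and MHC class I genes in 6 and 7 of 13 (medians -0.11 and -0.01). Of 35 actomyosin and cortex genes 21 lay above and 14 below 0 (median 0.02). Niche retention and adhesion genes lay above 0 in 5 and below 0 in 15 of 20 cases (median -0.03). The 13 mitochondrially encoded genes lay above 0 in 1 and below 0 in 12 cases with a median of -0.06, and 0 called.

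Markers of other cell types were summed in the stem and early progenitor cells of each library. B cell markers reached 243 and 380 CPM in YAP1 heterozygote and 213 and 211 CPM in WT libraries. Monocyte and macrophage markers reached 580 and 510 CPM against 353 and 667 CPM in WT. Dendritic cell markers (296 and 333 CPM against 300.5 and 357 CPM in WT) and T, NK and innate lymphoid markers (241 and 217 CPM against 240 and 234 CPM in WT) overlapped between the groups. Megakaryocyte markers stood at 109 and 72.1 CPM against 95.8 and 83.1 CPM in WT, and stromal markers at 24.5 and 28.6 CPM against 31.7 and 26.6 CPM in WT, with 7 of 12 stromal genes at 0.

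After thinning every cell with at least 2000 UMIs to that number, Nr4a1 had a UMI in 35.97% of stem and early progenitor cells, 2.83% of protease-high progenitors, 8.17% of B cells and 9.38% of neutrophils. Cells with fewer UMIs were left out, 876 of 9357 B cells and 1015 of 21917 neutrophils. Unthinned, the shares were 65.8%, 21.7%, 12.9% and 23.005% in that order.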
